A study of Homo sapiens with 8 samples.

Results

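Panobinostat was added to trametinib in 92.1 cells, and the libraries from cells given both drugs were compared, across all genes, with the libraries from cells given trametinib alone. 92.1 is an established line of human uveal melanoma, a tumour of the pigment cells of the eye. The series holds 8 RNA sequencing libraries, 2 in each of 4 treatment groups, and the 4 libraries whose labels name trametinib alone or trametinib+panobinostat entered the comparison. Trametinib was given at 10 nM for 24 h. The label of the combination gives 10 nM and 24 h once for both drugs, so that each drug was at 10 nM is an assumption. The other groups, vehicle (DMSO) and panobinostat alone at 10 nM for 24 h, were used only where the change with panobinostat is set beside its change without trametinib. The labels put the tag MEKi beside panobinostat as well; the drug name was followed here. All groups share 1 cell line, and no label says that the libraries of a group came from separate cultures, so a p-value here reflects only how much the libraries of a group vary, and that variation may be technical.

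Trametinib inhibits MEK1 and MEK2, the kinases that activate ERK, and ERK in turn drives the transcription of its own feedback genes and of growth genes such as the D cyclins. Panobinostat inhibits histone deacetylases (HDACs), enzymes that remove acetyl groups from histones and other proteins, largely as the catalytic part of corepressor complexes. In pigment cells the transcription factor MITF drives the genes of melanin synthesis and of the melanosome, the organelle that holds the pigment.

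The label of trametinib could be read from ERK's feedback genes. DUSP6, an ERK phosphatase transcribed in response to ERK activity, stood at 577 and 567 (normalised value, reads divided by a library's size factor) in the vehicle libraries, at 0 and 0 with trametinib and at 3.51 and 4.56 with both drugs. SPRY4, a feedback inhibitor of the same pathway, stood at 2838 and 2849, at 3.01 and 11.1 and at 4.68 and 7.61 in the same order. Neither gene differed between the combination and trametinib by the test (limma adjusted p = 0.476 and 0.998), and at a few reads per library a difference was not detectable. The summed value of the melanocyte markers (7 in the table), mostly TYRP1 and PMEL, was 167229 and 175142 with trametinib and 137486 and 138966 with both drugs. The endothelial markers (4 in the table) summed to 144 and 85.4 with trametinib and 41.0 and 33.5 with both drugs, nearly all of it VWF, with PECAM1 and CDH5 at 0 in all 4 libraries. The leukocyte markers (5 in the table) summed to 919.7 and 763 and to 1048 and 946, mostly CD68, with ITGAM at 0. The part of either in the results was not tested.

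Library totals, in reads assigned to genes, were 10342369 and 10528784 for trametinib and 9017593 and 6897784 for the combination. The trametinib libraries were less alike (r = 0.897 across genes) than the combination libraries (r = 0.974), and more of the 13320 tested genes were at 0 in them: 163 in trametinib replicate 1 and 858 in replicate 2, against 24 and 36 with both drugs. Of the genes detected in a library, 6.74% and 2.10% had 1 to 5 reads with trametinib, against 9.93% and 12.7% with both drugs. Low genes at 0 in the trametinib libraries are therefore marked as such below. The submitters' processing notes name a genome build for the 4 libraries without panobinostat and none for the 4 with it, so any difference in handling between these sets cannot be told apart from panobinostat.

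On adding panobinostat, 1148 of the 13320 tested genes rose (8.62% called) and 1108 fell (8.32% called) at an adjusted p under 0.05 (limma on log2 of the value plus 1). Of these, 671 rose (5.04%) and 311 fell (2.33%) by at least 2-fold, and the median change over all tested genes was 0.06 on the log2 scale. The 2 directions were not spread evenly over expression. Of the 2096 tested genes with a mean under 50 over the 8 libraries, 67 rose (3.20%) and 8 fell (0.382%). Of the 2166 with a mean of at least 1000, 305 rose (14.1%) and 563 fell (26.0%). Of the 1148 rises, 76 were of genes at 0 in 1 or both trametinib libraries, and 33 of genes at 0 in both. Of the 67 rises at means under 50, 54 were of genes at 0 in 1 or both trametinib libraries. The long nuclear RNA MALAT1 took the most reads of any gene, 6.85% and 7.91% of the summed values with trametinib and 11.9% and 12.2% with both drugs, a change of 0.71 ± 0.085 (log2 ± SE, n = 2 libraries per group here and below; limma adjusted p = 0.0027).

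Those counts depend on single libraries. In the fit of the 4 libraries, no gene passed once either combination library was left out (unadjusted p under 0.05 for 1812 genes without replicate 1 and 1787 without replicate 2, against 4276 with all 4 libraries), where 1 residual degree of freedom remained, as with any library left out. Leaving out trametinib replicate 1 gave 3587 rises and 2418 falls, and leaving out replicate 2 gave 2306 and 1798. A fit over all 8 libraries gave 2343 and 2020, and 1243 and 1267 without combination replicate 1 and 1250 and 1240 without replicate 2. With no filter on low values 596 rose and 383 fell. Beside a list's count stand counts under these settings where they differ by over 1.5 times. Filters on the mean over the 8 libraries at 50 or at 200 and above, which test fewer members, are treated alike. Not every such setting is shown, so one left out does not mean an unchanged count. With no filter, for example, the oxidative phosphorylation and the polycomb lists had 0 rises and 0 falls. The loss of all calls without either combination library applies to every list below and is not repeated. With 2 libraries in each group, the smallest two-sided p of an exact permutation test is 0.333, so single genes rest on the spread shared across genes. Each list's count below is to be set against the shares over all tested genes, 8.62% higher and 8.32% lower. Those shares grew with expression, to 14.1% higher and 26.0% lower at a mean of at least 1000. Lists of abundant genes are to be set against the latter.

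**Figure D1:**
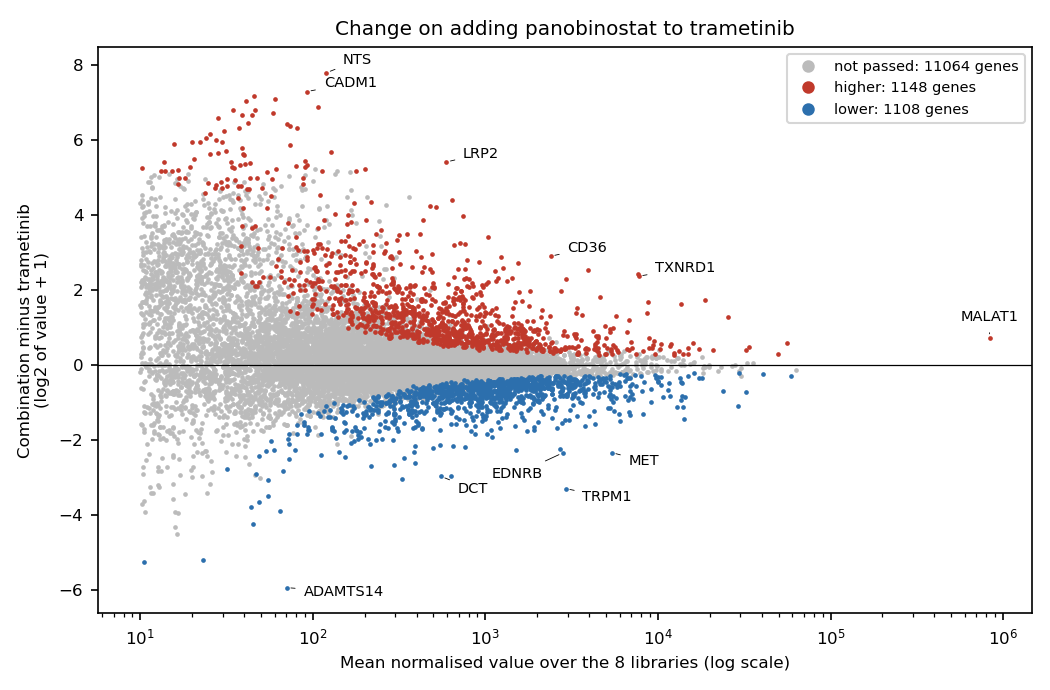
Each point is 1 of the 13320 tested genes. The x axis is its mean normalised value over the 8 libraries (log scale) and the y axis the combination minus trametinib difference on the log2(value + 1) scale. Red points rose (1148) and blue points fell (1108) at an adjusted p under 0.05, and the labelled falls are those of DCT, TRPM1, EDNRB and MET at higher means and of ADAMTS14, the lowest of them, at a low mean.

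Most tested genes of the pigment cell programme were lower with both drugs than with trametinib alone. Of 21 tested genes of pigmentation and the melanocyte lineage (25 listed), 18 fell and 1 rose, and their median log2 change was -1.03 against 0.06 over all genes. The median was -1.09 without trametinib replicate 1 and -0.97 without replicate 2. It was -1.05 without combination replicate 1 and -1.02 without replicate 2. As for all genes, the calls did not hold without either combination library. In RNA from a whole culture, a lower level in every cell and fewer cells with a high level cannot be told apart.

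MITF itself was at 8362 and 8592 with trametinib and at 4184 and 4336 with both drugs, a difference of -0.99 ± 0.065 (limma adjusted p = 0.000323). The combination libraries lay next to those of vehicle, at 4158 and 4070.1, and below those of panobinostat alone, at 5343 and 5099. DCT, the dopachrome tautomerase of melanin synthesis, was at 1984 and 1912 with trametinib and at 258 and 236 with both, 7.87-fold lower (-2.98 ± 0.13, limma adjusted p = 8.8e-05). Without trametinib it was close to absent, at 14.4 and 4.75 with vehicle and 5.10 and 10.1 with panobinostat, so the combination lay below trametinib but above the untreated level. Tyrosinase (TYR), the rate-limiting enzyme of melanin synthesis, went from 2726 and 2972 to 1589 and 1413 (-0.93 ± 0.10), next to vehicle at 1588 and 1534.

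TRPM1, a cation channel of melanocytes and retinal bipolar cells whose gene is a MITF target, showed the widest fall of the list. It was at 8151 and 7512 with trametinib and at 896 and 699.8 with both drugs, 9.87-fold lower (-3.30 ± 0.13, limma adjusted p = 5.23e-05), and here the combination lay below vehicle (1586 and 1662) too. EDNRB, the endothelin receptor of the melanocyte lineage, was at 7236 and 8447 and 1572 and 1494 (-2.35 ± 0.095, limma adjusted p = 6.56e-05). TSPAN10, a tetraspanin, went from 6381 and 6646 to 1343 and 1401 (-2.25 ± 0.077, limma adjusted p = 4.48e-05). MYO5A, the myosin that carries melanosomes along actin, went from 8914 and 9101 to 3060.2 and 2916 (-1.59 ± 0.067, limma adjusted p = 8.04e-05). In each of these the lowest trametinib library stood above the highest combination library. With 2 libraries per group that is nearly fixed for falls of this size.

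Other members of the list, picked here after their values were seen, show that melanosome transport, ion transport and structure were all included. The adaptor MLPH, which links RAB27A to MYO5A, changed by -1.74 ± 0.10 and RAB27A by -1.69 ± 0.17. SLC45A2, a melanosomal transporter, changed by -2.26 ± 0.11 and GPR143, the ocular albinism receptor, by -1.76 ± 0.091. Among the most abundant members the changes were small: TYRP1 was at 77991 and 80168 and 64632 and 63691 (-0.30 ± 0.051) and PMEL, the fibril protein of the melanosome, at 50705 and 53493 and 42296 and 45795 (-0.24 ± 0.062). PAX3, an upstream regulator of MITF, was the 1 member that rose, from 2345 and 2587 to 3210.1 and 3146 (0.37 ± 0.084, limma adjusted p = 0.0277). The melanocyte marker SOX10 did not fall, at 17631.5 and 19961.5 with trametinib and 20061 and 19340 with both drugs.

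Promoter windows are shown because several of these genes carry the letters of a MITF-type motif close to their start. The 250 bases before each start were taken from RefSeq (build GRCh38.p14, which is not the build named for the libraries) and searched on both strands for TCATGTG, whose reverse complement is CACATGA, a motif added after the falls had been seen. It occurred in 7 of the 16 list genes with an entry (43.8%) and in 850 of all 27305 genes (3.11%). A match describes the letters only. The 7 were DCT, TYR, GPR143, TSPAN10, SLC24A5, GPNMB and TYRP1, of which GPNMB did not pass (limma adjusted p = 0.715) and TYRP1 changed by -0.30. The motif is in capitals in 4 of their windows, those of DCT (chr13:94479683-94479932, minus strand, starting 215 and 135 bases before the start), TYR (chr11:89177625-89177874, plus strand, 105 bases), GPR143 (chrX:9765848-9766097, minus strand, 61 and 33 bases) and TSPAN10 (chr17:81642055-81642304, plus strand, 80 bases), each printed 5′ to 3′ on the gene's strand.
DCT: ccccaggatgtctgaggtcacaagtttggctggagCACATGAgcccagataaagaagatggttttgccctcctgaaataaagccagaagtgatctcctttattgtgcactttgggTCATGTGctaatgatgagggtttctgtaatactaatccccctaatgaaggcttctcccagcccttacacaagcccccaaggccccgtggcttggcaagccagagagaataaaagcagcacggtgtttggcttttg
TYR: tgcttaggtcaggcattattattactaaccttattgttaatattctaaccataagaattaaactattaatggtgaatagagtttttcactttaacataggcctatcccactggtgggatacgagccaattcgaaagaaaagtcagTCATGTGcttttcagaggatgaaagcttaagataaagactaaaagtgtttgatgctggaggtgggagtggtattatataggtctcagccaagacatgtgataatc
GPR143: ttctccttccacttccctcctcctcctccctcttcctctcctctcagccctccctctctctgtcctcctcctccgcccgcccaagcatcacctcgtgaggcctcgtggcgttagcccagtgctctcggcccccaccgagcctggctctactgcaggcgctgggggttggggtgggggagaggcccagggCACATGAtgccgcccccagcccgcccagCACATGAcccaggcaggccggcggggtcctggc
TSPAN10: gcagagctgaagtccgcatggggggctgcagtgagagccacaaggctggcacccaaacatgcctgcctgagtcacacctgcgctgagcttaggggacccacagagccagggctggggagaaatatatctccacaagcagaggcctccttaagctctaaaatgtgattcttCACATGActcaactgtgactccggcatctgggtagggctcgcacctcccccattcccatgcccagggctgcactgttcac
The windows of TRPM1, EDNRB and MYO5A, which also fell, do not hold these letters, and neither does that of PAX3.

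**Figure D2:**
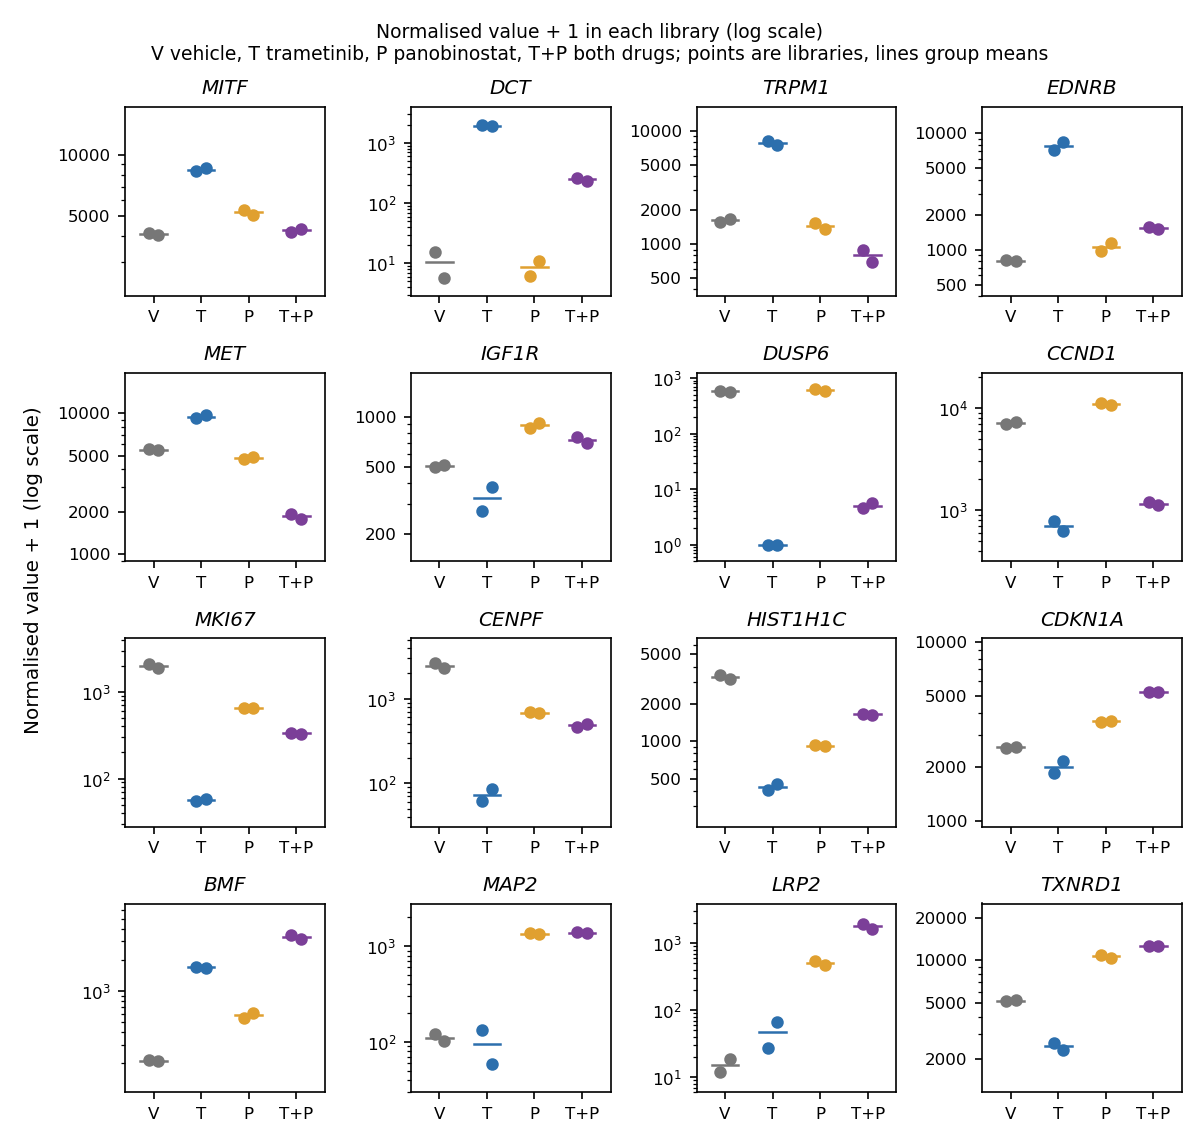
Normalised value plus 1 (log scale) of 16 genes in each of the 8 libraries, with V for vehicle, T for trametinib, P for panobinostat and T+P for both drugs; points are libraries and lines group means. MITF, DCT, TRPM1, EDNRB and MET are high with trametinib and lower with both drugs, MKI67, CENPF and HIST1H1C are lowest with trametinib alone, and BMF is highest with both drugs.

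Beyond pigmentation, the widest gaps among the falls included signalling genes. MET, the receptor for hepatocyte growth factor, was at 9197 and 9695 with trametinib and at 1942 and 1783 with both drugs, 5.07-fold lower (-2.34 ± 0.078, limma adjusted p = 4.48e-05). Both combination values lay below those of vehicle (5559.9 and 5446) and of panobinostat alone (4737 and 4893). IRF4, a transcription factor of lymphocytes and melanocytes, went from 612 and 846 to 119 and 102 (-2.69 ± 0.24). DGKI, a kinase that consumes diacylglycerol, went from 1605 and 1568 to 194 and 207 (-2.98 ± 0.14), and IL16, a chemoattractant cytokine, from 1047 and 1219.7 to 167 and 198 (-2.63 ± 0.18).

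The other genes in this ranking of 15 were ADAMTS14, LDB3, CNTN2, CYP19A1, GALNT3, OLFML2B, NTRK2, PDZD2 and EFCAB5. ADAMTS14, a procollagen peptidase, had the largest fitted fall of the 15 (-5.94 ± 0.84, from 227 and 310.4 to 1.17 and 7.61), which was -4.95 without combination replicate 1 and -6.94 without replicate 2. NTRK2, the receptor for brain-derived neurotrophic factor, was at 209.6 and 199 with trametinib and 4.68 and 31.9 with both drugs (-3.91 ± 0.85, or -2.64 without combination replicate 1 and -5.17 without replicate 2). CYP19A1, the aromatase, fell from 199.6 and 84.4 to 7.02 and 12.2 (-3.67 ± 0.72, or -3.05 without trametinib replicate 1 and -4.29 without replicate 2). GALNT3, an enzyme that starts O-glycan chains, went from 771 and 812 to 73.8 and 122 (-3.05 ± 0.28). Of these 15 genes none overlapped between the groups, which the ranking itself fixes.

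Among 20 tested receptor tyrosine kinases 2 rose and 3 fell (7 and 6 without trametinib replicate 1, 4 and 4 without replicate 2, 0 and 1 with no filter, 5 and 3 with all 8 libraries). The risers were ERBB4, a neuregulin receptor, from 60.2 and 25.1 to 303 and 307 (2.94 ± 0.48, 3.55 without trametinib replicate 1 and 2.32 without replicate 2), and IGF1R, the receptor for insulin-like growth factor 1, from 273 and 379.8 to 759.8 and 691 (1.17 ± 0.20, limma adjusted p = 0.00964). The collagen receptor DDR2 fell with MET and NTRK2, from 1081 and 1394 to 691 and 520.3 (-1.03 ± 0.19). ROR1, an orphan receptor of Wnt5a, was at 76.2 and 14.1 and 117 and 77.6 and did not pass (limma adjusted p = 0.255).

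The widest gaps among the rises belonged to genes that were off or nearly off with trametinib. Of the 15 that the ranking gave, 12 were at 0 in both trametinib libraries. Their folds are therefore set against a floor of 3 reads per library, which covers counting error only. The trametinib libraries differed beyond that floor in some low genes, such as COL1A2 (0 and 30.1) and LYZ (76.2 and 1.00). A fold given below as at least a value holds only against that floor. CADM1, an immunoglobulin-family adhesion molecule, was at 0 and 0 with trametinib and 138 and 175 with both drugs, at least 52-fold higher (limma adjusted p = 0.00481). It was expressed without trametinib, at 50.6 and 50.7 with vehicle. VGLL3, a cofactor of TEAD transcription factors, was at 0 and 0 and 164 and 123, at least 47.7-fold higher, and was also near 0 with vehicle, at 1.81 and 0.792. DACH1, a transcription factor of eye and limb development, was at 180.3 and 95.8 with both drugs, at least 45.8-fold higher, and the small heat shock protein HSPB3 at 118 and 103, at least 36.8-fold.

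NTS, the precursor of the peptide neurotensin, was at 3.01 and 0 with trametinib and at 461 and 424 with both drugs, well above panobinostat alone at 27.5 and 36.3. On reads its ratio was 296 (exact interval 101 to 1438, counting error only). Doublecortin (DCX), a microtubule protein of migrating neurons, was at 1.00 and 0 and 207 and 175, a ratio of 385 (68.5 to 15254), and MAP7, another microtubule protein, at 1.00 and 0 and 151 and 159.7, a ratio of 308 (54.8 to 12235). The remaining genes of this ranking were CRIP2, CNTN5, AGAP2, ADAMTS5, SLAIN1, TMEM59L, SAMD11 and the T-type calcium channel CACNA1G, each at 0 in both trametinib libraries and between 62.4, the lower value of CACNA1G, and 136, the higher value of ADAMTS5, with both drugs.

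Because so many of these were at 0, a second ranking, added after the values were seen, took only genes with a mean of at least 500 over the 8 libraries. LRP2 (megalin), an endocytic receptor, led it at 26.1 and 65.3 with trametinib and 1959.8 and 1657 with both drugs (5.41 ± 0.41, 4.77 without trametinib replicate 1 and 6.06 without replicate 2). MAP2, the microtubule protein of dendrites, went from 131 and 58.3 to 1399 and 1375 (3.97 ± 0.36, or 4.55 without trametinib replicate 1 and 3.39 without replicate 2). The fatty acid transporter CD36 went from 561 and 542 to 4151 and 4069 (2.90 ± 0.092, limma adjusted p = 4.48e-05). CITED2, a transcriptional cofactor that binds p300 and CBP, went from 291 and 156 to 2289 and 2251 (3.41 ± 0.27), and NFKBIZ, a nuclear modulator of NF-kB, from 366 and 344 to 2786 and 2436 (2.87 ± 0.12).

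Several genes of this second ranking had their highest values with both drugs. DIO2, the deiodinase that activates thyroid hormone, was at 42.7 and 51.5 with vehicle and 41.1 and 232 with trametinib, at 49.95 and 52.4 with panobinostat alone and at 1767 and 1891 with both drugs (4.21 ± 0.68, 2.97 without trametinib replicate 1 and 5.44 without replicate 2). Its response to panobinostat differed with and without trametinib by 4.08 ± 0.86 (limma interaction adjusted p = 0.0102). CYP1B1, an oxidase of steroids and aryl hydrocarbons, stood at 166 and 115, 155 and 317, 180.4 and 205 and 2176 and 1952 in that order, an interaction of 2.73 ± 0.43 (limma adjusted p = 0.00214). JPH1, a junctional membrane protein, was at 581 and 564, 178 and 138, 636 and 569.7 and 1514 and 1495 (interaction 3.19 ± 0.20).

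Genes of neural cells were among the rises, in numbers that depend on the filter. Of 13 tested immunoglobulin adhesion molecules of neural cells, 8 rose and 2 fell (3 and 1 with no filter, 4 and 1 at a mean of at least 200), of 26 synaptic and neuronal genes 8 rose and 2 fell (13 and 4 without trametinib replicate 1, 15 and 3 without replicate 2, 4 and 1 with no filter, 4 and 2 at a mean of at least 200), and of 18 genes of the neuronal cytoskeleton 5 rose and 1 fell (12 and 1 without trametinib replicate 1, 8 and 1 without replicate 2, 3 and 1 with no filter, 3 and 1 at a mean of at least 200, 11 and 1 with all 8 libraries). With panobinostat alone 9, 19 and 11 of the same genes rose against vehicle (26.8% of all tested genes rose there). The summed neuronal markers (5 in the table) stood at 95.3 and 109.5 with trametinib and at 479 and 444 with both drugs. Of those with both drugs 281 and 301 were SLC17A7, which is also a counted riser of the synaptic list, while SNAP25 and ELAVL4 stayed under 18 in every one of the 4 libraries. The part of these markers in the counts was not tested.

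ALCAM, an adhesion molecule of neural and immune cells, was at 536 and 419.9 with trametinib and 2333 and 2148 with both drugs (2.24 ± 0.14, limma adjusted p = 0.000323). NCAM1, the neural cell adhesion molecule, went from 297 and 382 to 1576 and 1336 (2.10 ± 0.17), and L1CAM, its relative on axons, from 22.1 and 35.2 to 310.2 and 256 (3.29 ± 0.43). CNTNAP1, a paranodal junction protein, went the other way, from 1546 and 1502 to 889 and 826 (-0.83 ± 0.10). Among synaptic genes, PCLO of the active zone went from 831 and 855 to 1682 and 1505 (0.92 ± 0.11) and the vesicular glutamate transporter SLC17A7 from 45.1 and 28.1 to 281 and 301 (2.99 ± 0.40).

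The microtubule proteins MAP1B and STMN3 rose as well, MAP1B from 24.1 and 27.1 to 227 and 269 (3.23 ± 0.42) and STMN3 from 334 and 367 to 660.3 and 671 (0.93 ± 0.15). Of 7 tested granins, neuropeptides and convertases 3 rose and 1 fell (4 and 2 without trametinib replicate 1, 4 and 1 without replicate 2). VGF, a secreted neuropeptide precursor, was at 147 and 196 and 746 and 946 (2.30 ± 0.22), far below its level with panobinostat alone (8093 and 8185). Galanin (GAL) went from 269.8 and 244 to 649.7 and 645 (1.33 ± 0.17) and the convertase PCSK2 fell from 383 and 376 to 137 and 196 (-1.21 ± 0.26). Of 11 voltage-gated calcium and sodium channel genes 1 rose and 0 fell (3 and 1 without trametinib replicate 1, 3 and 0 without replicate 2).

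**Figure D3:**
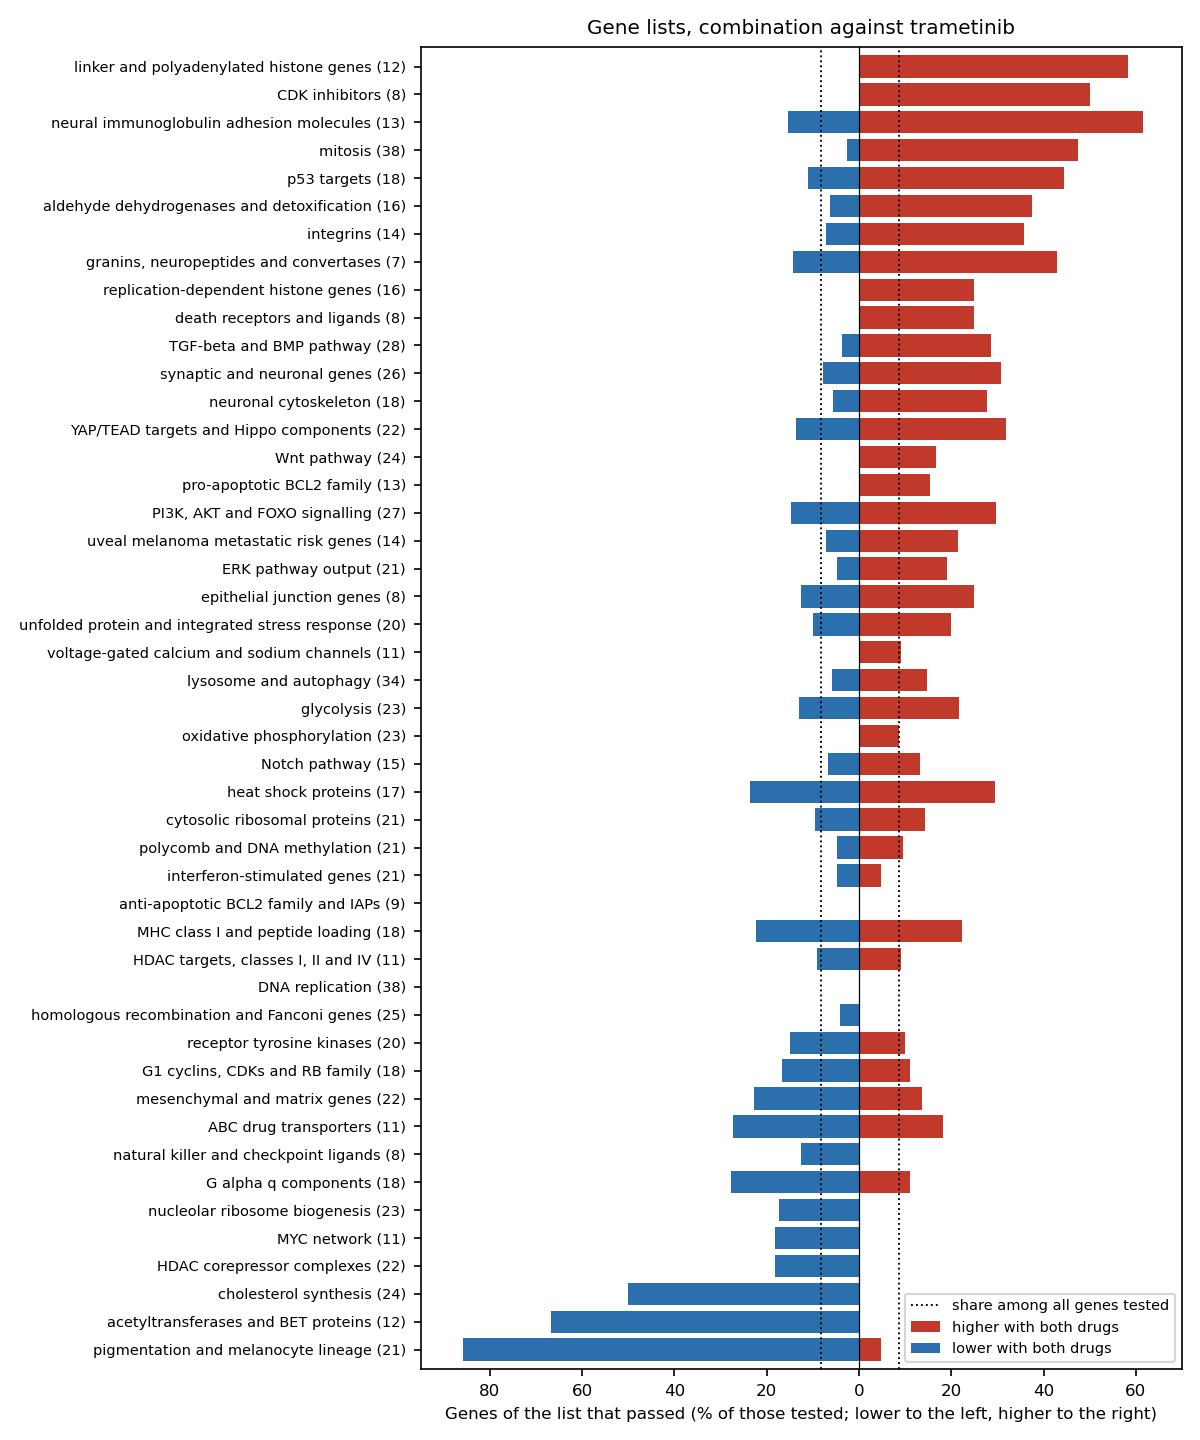
Share of each gene list that rose (red, to the right) or fell (blue, to the left) with both drugs against trametinib, in percent of the genes tested, whose number stands in brackets; dotted lines mark the shares over all tested genes (8.62% and 8.32%). The pigmentation list reaches furthest to the left, with 18 of 21 genes lower, and the neural adhesion molecules furthest to the right, with 8 of 13 higher; lists with fewer than 5 tested genes are not drawn.

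Genes of mitosis were among the rises. Of 38 tested, 18 rose and 1 fell (29 and 1 without trametinib replicate 1, 27 and 1 without replicate 2, 4 and 1 with no filter, 29 and 1 with all 8 libraries), and the median log2 change was 1.60 against 0.06 over all genes. MKI67, the antigen that marks cycling cells, was at 54.2 and 56.3 with trametinib and at 335 and 327 with both drugs (2.56 ± 0.31, limma adjusted p = 0.00272), compared with 2106 and 1906 in vehicle. CENPF, a kinetochore protein, went from 60.2 and 84.4 to 464 and 505 (2.75 ± 0.29) and ASPM, a spindle pole protein, from 114 and 162 to 858 and 788 (2.59 ± 0.23). With panobinostat alone both stayed higher still, CENPF at 688 and 672 and ASPM at 1081 and 1194. INCENP, a subunit of the chromosomal passenger complex, was the 1 member that fell, from 1259 and 1402 to 674 and 637 (-1.02 ± 0.12). The levels of the combination therefore lay between trametinib and panobinostat for MKI67, CENPF and ASPM, and below vehicle in each case.

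Promoters of the mitosis list are often built from CCAAT boxes and a downstream cell cycle element (CHR), and a search of the 250 bases before the start described how far this holds here. CCAAT (or ATTGG on the other strand) was found in 25 of 31 list genes with an entry (80.6%, against 37.0% of all 27305 genes), and the CHR letters TTTGAA (or TTCAAA) in 18 (58.1%, against 16.1%). GGGCGG (or CCGCCC), the GC box, was in 25 of the 31 (80.6%, against 46.2%), and is not marked below. The windows of MKI67 (chr10:128126424-128126673, minus strand), CENPF (chr1:214602945-214603194, plus strand) and INCENP (chr11:62123761-62124010, plus strand) are printed to set 2 members that rose beside the 1 that fell, with CCAAT and CHR letters in capitals.
MKI67: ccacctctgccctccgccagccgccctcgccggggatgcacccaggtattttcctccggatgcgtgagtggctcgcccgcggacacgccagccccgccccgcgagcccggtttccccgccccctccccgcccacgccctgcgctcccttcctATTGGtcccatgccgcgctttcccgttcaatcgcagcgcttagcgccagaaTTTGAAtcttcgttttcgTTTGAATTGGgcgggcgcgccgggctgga
CENPF: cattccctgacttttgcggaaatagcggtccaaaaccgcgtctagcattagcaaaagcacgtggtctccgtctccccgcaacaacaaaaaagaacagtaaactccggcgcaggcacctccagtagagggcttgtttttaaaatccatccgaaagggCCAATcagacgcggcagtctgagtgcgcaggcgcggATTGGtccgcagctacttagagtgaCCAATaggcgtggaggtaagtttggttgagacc
INCENP: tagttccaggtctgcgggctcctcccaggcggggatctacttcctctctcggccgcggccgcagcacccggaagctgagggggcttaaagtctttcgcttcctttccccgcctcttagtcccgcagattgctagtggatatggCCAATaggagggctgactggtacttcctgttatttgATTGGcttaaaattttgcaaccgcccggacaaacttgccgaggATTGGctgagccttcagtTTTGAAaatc
INCENP carries both kinds of letters although it fell, and CENPF carries CCAAT without the CHR letters.

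Genes of DNA replication did not follow. Of 38 tested none passed by limma (2 at an unadjusted p under 0.05, median log2 change 0.27). With all 8 libraries in 1 fit 4 were higher and 3 lower. The median was 0.37 without trametinib replicate 1 and -0.025 without replicate 2. Of 25 homologous recombination and Fanconi genes 0 rose and 1 fell (8 and 2 without trametinib replicate 1, 2 and 1 without replicate 2, 4 and 1 with all 8 libraries); the fall was of PALB2, the partner of BRCA2, from 741 and 644 to 397 and 429 (-0.74 ± 0.15). Among 18 G1 cyclins, CDKs and RB family members 2 rose and 3 fell (5 and 6 without trametinib replicate 1, 6 and 4 without replicate 2, 6 and 5 with all 8 libraries). CDK2 went from 7224 and 6599.6 to 2731 and 2603 (-1.37 ± 0.078, limma adjusted p = 0.000195) and CDK4 from 1576 and 1451 to 852 and 869 (-0.81 ± 0.11), while the pocket protein RB1 rose from 855 and 1120.2 to 1823 and 1862 (0.91 ± 0.14).

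Of 8 tested CDK inhibitors 4 rose and 0 fell (1 and 0 with no filter). CDKN1A (p21), a broad inhibitor of cyclin-CDK complexes and a p53 target, was at 1855 and 2158 with trametinib and 5237 and 5223 with both drugs (1.39 ± 0.093, limma adjusted p = 0.000358). Its level with both drugs was the highest of the 4 groups, vehicle being at 2564 and 2601 and panobinostat alone at 3579 and 3611. CDKN2A went from 924 and 1179 to 1664 and 1495 (0.60 ± 0.14) and CDKN2B from 92.3 and 72.3 to 194 and 225 (1.35 ± 0.33), both inhibitors of CDK4 and CDK6. CDKN1B (p27) was at 607 and 497 and 587 and 499 and did not pass (limma adjusted p = 0.943).

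Histone genes were among the rises as well. Of 12 tested linker and polyadenylated histone genes 7 rose and 0 fell (7 and 1 without trametinib replicate 1, 8 and 1 without replicate 2, 3 and 0 with no filter), and of 16 replication-dependent ones 4 rose and 0 fell (10 and 0 without trametinib replicate 1, 7 and 0 without replicate 2, 0 and 0 with no filter, 10 and 0 with all 8 libraries). HIST1H1C, a linker histone gene, was at 408 and 448 with trametinib and 1657 and 1632 with both drugs (1.94 ± 0.12, limma adjusted p = 0.000285), which lay above panobinostat alone (925 and 919) and below vehicle (3391 and 3175). H1FX, another linker histone, went from 295 and 363 to 1082 and 1202 (1.80 ± 0.16) and the replacement histone gene H3F3B from 3009 and 3064 to 4858 and 4676 (0.65 ± 0.071). HIST1H1E, of the replication-dependent list, went from 2948 and 2468 to 6387 and 5933 (1.19 ± 0.10). Some histone genes are near-identical copies, and reads may have been divided among them, so single members may be uncertain. H1F0, a linker histone known to respond to HDAC inhibitors, was listed at 0 in all 4 libraries and was not tested.

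Most HDACs did not pass, as held for all tested genes, of which 8.62% rose and 8.32% fell. Of 11 tested, 1 rose and 1 fell (3 rose without trametinib replicate 1). HDAC9, a class IIa enzyme, was at 1078 and 1255 with trametinib and 3019 and 2641 with both drugs (1.28 ± 0.12, limma adjusted p = 0.000985), and its relative HDAC4 at 1523 and 1687 and 639 and 699.8 (-1.26 ± 0.12, limma adjusted p = 0.00105). HDAC1, HDAC2, HDAC3 and HDAC6, 3 class I enzymes and the tubulin deacetylase, did not pass (limma adjusted p from 0.229 for HDAC6 to 0.616 for HDAC2). Of 22 genes of the corepressor complexes 0 rose and 4 fell (4 and 4 without trametinib replicate 1, 0 and 5 without replicate 2); CHD3, a helicase of the NuRD complex, went from 3653 and 3837 to 1426 and 1562 (-1.33 ± 0.088).

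Genes of proteins that write or read acetyl marks were among the falls. Of 12 tested acetyltransferases and BET proteins 0 rose and 8 fell (0 and 9 without trametinib replicate 1, 1 and 9 without replicate 2, 0 and 0 with no filter), so with no filter on low values no call was left. BRD2, a BET protein that binds acetylated histones, went from 5574 and 5469 to 3696 and 4007 (-0.52 ± 0.073, limma adjusted p = 0.00495) and BRD3 from 1666 and 1905 to 1148 and 1021 (-0.72 ± 0.12). CREBBP, the acetyltransferase CBP, went from 5216 and 5556 to 3946 and 3785 (-0.48 ± 0.072) and KAT6A from 2214 and 2359 to 1778 and 1778 (-0.36 ± 0.086). These 4 falls were smaller than 2-fold. All 4 genes had means above 1000 over the 8 libraries, a level at which 26.0% of tested genes fell. Of 21 polycomb and DNA methylation genes 2 rose and 1 fell (4 and 2 without trametinib replicate 1, 2 and 3 without replicate 2); EZH2, the polycomb methyltransferase, rose from 248 and 243 to 484 and 371 (0.79 ± 0.21) and TET3, which oxidises methylcytosine, fell from 1532 and 1344 to 1048 and 977 (-0.50 ± 0.11).

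A few ERK output genes rose from the trametinib level, and those named here stayed below vehicle. Of 21 tested, 4 rose and 1 fell (9 and 1 without trametinib replicate 1, 7 and 1 without replicate 2, 11 and 1 with all 8 libraries). DUSP4, a nuclear ERK phosphatase, was at 751 and 817 with trametinib and 1414 and 1617 with both drugs (0.95 ± 0.12, limma adjusted p = 0.00336), against 6693 and 7080.1 with vehicle. CCND1, cyclin D1, was at 785 and 632 and 1191 and 1114 (0.71 ± 0.14) against 7030.2 and 7329.5, and PHLDA1 at 436 and 492 and 1058 and 959.9 (1.12 ± 0.14) against 2075 and 1997. HMGA2, a chromatin protein of embryonic and tumour cells, went from 52.2 and 60.3 to 318 and 321 (2.49 ± 0.31). MYC was at 53.2 and 32.1 and 44.5 and 89.8, against 4021 and 4133 with vehicle, and did not pass (limma adjusted p = 0.535). MAP2K1 and MAP2K2, which encode the targets of trametinib, did not pass either (limma adjusted p = 0.907 and 0.804).

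In PI3K, AKT and FOXO signalling, 8 rose and 4 fell (5 and 1 with no filter) of 27 tested. IRS2, the adaptor of insulin and IGF receptors, was at 5329 and 4828 with trametinib and 12100.4 and 12735 with both drugs (1.29 ± 0.073, limma adjusted p = 0.000195). That was the highest of the 4 groups, with vehicle at 1908 and 2019.6. SESN3, a stress-induced inhibitor of mTORC1, went from 768 and 877 to 2107 and 2163 (1.38 ± 0.11). Regulatory subunits of PI3K rose too, PIK3R3 from 490.4 and 517 to 1316 and 1559 (1.51 ± 0.13) and PIK3R1 from 1717 and 1974 to 3585 and 3629.8 (0.97 ± 0.094). IRS2, SESN3 and PIK3R3 also rose with panobinostat alone (0.74, 1.71 and 0.99).

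For YAP/TEAD targets and Hippo components, a growth pathway known to be active in uveal melanoma, 7 rose and 3 fell (10 and 4 without trametinib replicate 1, 7 and 6 without replicate 2, 5 and 1 with no filter, 8 and 5 with all 8 libraries) of 22 tested. The matricellular target CYR61 was at 388 and 327 with trametinib and 1132 and 1287 with both drugs (1.76 ± 0.15, limma adjusted p = 0.000847), and CTGF at 81.2 and 55.3 and 289 and 240.4 (1.96 ± 0.35). CRIM1, a membrane protein, went from 137 and 185 to 667 and 694 (2.09 ± 0.22) and the coactivator YAP1 itself from 904 and 880.1 to 1248 and 1301 (0.51 ± 0.10). Of 18 tested components of G alpha q signalling, the pathway most often mutated in this tumour, 2 rose and 5 fell (3 and 6 without trametinib replicate 1, 4 and 5 without replicate 2, 2 and 1 with no filter). Protein kinase C beta (PRKCB) went from 1398 and 1550.2 to 705 and 636 (-1.14 ± 0.12) and protein kinase C alpha (PRKCA) from 903 and 874 to 1535 and 1456 (0.75 ± 0.10); GNAQ and GNA11 did not pass (limma adjusted p = 0.228 and 0.969).

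Among cell death genes, 2 BH3-only members rose. Of 13 tested pro-apoptotic BCL2 family members 2 rose and 0 fell (6 and 0 without trametinib replicate 1, 5 and 0 without replicate 2, 4 and 0 with a pseudocount of 10, 4 and 0 at a mean of at least 50, 5 and 1 with all 8 libraries). BMF, a BH3-only protein, was at 1712 and 1663 with trametinib and 3491 and 3202 with both drugs (0.99 ± 0.086, limma adjusted p = 0.000849), with vehicle at 214 and 207 and panobinostat at 548 and 614. BCL2L11 (BIM), another BH3-only protein, went from 205 and 168 to 336 and 432 (1.04 ± 0.24, limma adjusted p = 0.029), with vehicle at 66.2 and 99.8. Both were highest with both drugs, with no overlap with any other group. The share of all tested genes with this pattern is not given here. Of 9 anti-apoptotic members none passed by limma (3 at an unadjusted p under 0.05; 2 rose and 2 fell without trametinib replicate 1). BCL2 was at 558 and 734 and 321 and 459 (limma adjusted p = 0.0722), BCL2L1 at 1378 and 1550.2 and 1028 and 1162 (0.0529) and MCL1 at 1479 and 1195 and 1445 and 1448 (0.539). Of 8 death receptors and ligands 2 rose and 0 fell (4 and 0 without trametinib replicate 1, 3 and 0 without replicate 2), among them the TRAIL receptor TNFRSF10B, from 741 and 747 to 1062 and 1130.3 (0.56 ± 0.11).

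Of 18 tested p53 targets 8 rose and 2 fell (3 and 0 with no filter). PLK2, a kinase of centriole duplication, was at 288 and 193 with trametinib and 1147 and 1149 with both drugs (2.28 ± 0.21, limma adjusted p = 0.00104). The growth arrest genes BTG2 and GADD45A went from 535 and 449 to 1030.2 and 1132 (1.14 ± 0.14) and from 196 and 192 to 515 and 555 (1.46 ± 0.19), and MDM2, the ligase for p53, from 1432 and 1288 to 2576 and 2726 (0.96 ± 0.10). Each of these 4 lay above all 3 other groups in both combination libraries. How many of all tested genes did so is not given here.

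Antioxidant and detoxification genes were among the rises, and cholesterol genes among the falls. Of 16 tested aldehyde dehydrogenases and detoxification genes 6 rose and 1 fell (11 and 2 without trametinib replicate 1, 8 and 1 without replicate 2, 2 and 0 with no filter). TXNRD1, thioredoxin reductase, was at 2597 and 2315 with trametinib and 12558 and 12671 with both drugs, 5.14-fold higher (2.36 ± 0.077, limma adjusted p = 4.48e-05). The quinone reductase NQO1 went from 5338 and 5444 to 18237 and 17444 (1.73 ± 0.06) and haem oxygenase HMOX1 from 532 and 526 to 1201 and 999 (1.05 ± 0.14). Of 24 cholesterol synthesis and uptake genes 0 rose and 12 fell (3 and 15 without trametinib replicate 1, 0 and 16 without replicate 2, 0 and 5 with no filter), with a median log2 change of -0.52. HMGCS1, an early enzyme of the pathway, went from 3683 and 3459 to 1524 and 1589.7 (-1.20 ± 0.084).

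Protein folding and stress genes were mixed. Of 17 tested heat shock protein genes 5 rose and 4 fell (2 and 0 with no filter): the constitutive chaperone HSPA8 went from 9286 and 11384 to 4778 and 4626 (-1.13 ± 0.10) and the co-chaperone DNAJB4 from 634 and 544 to 1624 and 1663 (1.48 ± 0.12), and reads may be shared among such copies. Of 20 genes of the unfolded protein and integrated stress response 4 rose and 2 fell (7 and 4 without trametinib replicate 1, 6 and 4 without replicate 2, 1 and 1 with no filter, 5 and 4 with all 8 libraries). ATF4, the transcription factor of the integrated stress response, went from 3656 and 3839 to 2118 and 2127 (-0.82 ± 0.077), while ATF3, one of its targets, went from 221 and 227 to 725 and 574 (1.52 ± 0.19). Among 34 lysosome and autophagy genes 5 rose and 2 fell (8 and 5 without trametinib replicate 1, 5 and 4 without replicate 2, 1 and 0 with no filter, 6 and 5 with all 8 libraries), including a rise of the autophagy receptor SQSTM1 from 10927 and 11931 to 16229.5 and 17317 (0.55 ± 0.069).

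Biosynthetic and energy genes held changes in both directions, in some lists near the shares over all tested genes (8.62% rose and 8.32% fell). Of 23 nucleolar ribosome biogenesis genes 0 rose and 4 fell (0 and 9 without trametinib replicate 1, 0 and 8 without replicate 2, 0 and 0 with no filter, 0 and 11 with all 8 libraries), of 21 cytosolic ribosomal proteins 3 rose and 2 fell (7 and 3 without trametinib replicate 1, 6 and 2 without replicate 2, 6 and 2 with a pseudocount of 10, 7 and 3 at a mean of at least 50, 0 and 0 with no filter, 8 and 3 at a mean of at least 200, 8 and 3 with all 8 libraries), of 11 genes of the MYC network 0 rose and 2 fell (0 and 5 without trametinib replicate 1, 0 and 4 without replicate 2, 0 and 4 with a pseudocount of 10, 0 and 4 at a mean of at least 50, 0 and 4 at a mean of at least 200, 0 and 4 with all 8 libraries), and of 23 glycolysis genes 5 rose and 3 fell (8 and 4 without trametinib replicate 1, 9 and 4 without replicate 2, 1 and 0 with no filter, 9 and 4 with all 8 libraries). UBTF, the factor of ribosomal RNA transcription, went from 1549.5 and 1351 to 839 and 875 (-0.76 ± 0.12). Of 23 oxidative phosphorylation genes 2 rose and 0 fell (4 and 2 without trametinib replicate 1, 2 and 5 without replicate 2); PPARGC1A, a coactivator of mitochondrial biogenesis that MITF is known to regulate, rose from 309.9 and 196 to 898 and 895 (1.86 ± 0.23, limma adjusted p = 0.00327). Of 11 ABC transporters 2 rose and 3 fell (4 and 3 without trametinib replicate 1, 4 and 3 without replicate 2); ABCB5, a transporter of melanoma and pigment cells, fell from 7190 and 6769 to 2504 and 2559 (-1.46 ± 0.072).

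Antigen presentation was divided. Of 18 tested genes of MHC class I and peptide loading 4 rose and 4 fell (2 and 2 with no filter): HLA-B was at 4415 and 4343 with trametinib and 5825 and 6053 with both drugs (0.44 ± 0.066), and the loading chaperone TAPBP at 8224 and 8054 and 5324 and 5501 (-0.59 ± 0.063). Reads may be shared among HLA genes. Of 21 interferon-stimulated genes 1 rose and 1 fell (4 and 6 without trametinib replicate 1, 2 and 2 without replicate 2, 2 and 3 with all 8 libraries), the rise being of IFI44L, from 32.1 and 15.1 to 200.2 and 199 (3.12 ± 0.53). Of 8 natural killer and checkpoint ligands 0 rose and 1 fell (1 and 1 without trametinib replicate 1, 1 and 1 without replicate 2), the fall being of PVR. Only 2 MHC class II genes, 2 metallothioneins and 1 cancer-testis gene were expressed enough to be tested, and none of them passed by limma (1, 1 and 0 at an unadjusted p under 0.05).

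Adhesion, matrix and developmental pathways held changes in both directions. Of 14 integrins 5 rose and 1 fell (8 and 1 without trametinib replicate 1, 10 and 1 without replicate 2, 2 and 0 with no filter, 3 and 0 at a mean of at least 200, 8 and 1 with all 8 libraries), including ITGAV, from 599.8 and 375 to 1127 and 1422 (1.42 ± 0.24), and ITGB8, from 184 and 129.6 to 465 and 426 (1.52 ± 0.25). Of the mesenchymal and matrix list (22 tested) 3 rose and 5 fell (6 and 6 without trametinib replicate 1, 6 and 5 without replicate 2, 5 and 5 with a pseudocount of 10, 2 and 1 with no filter, 5 and 5 with all 8 libraries): SNAI2, a transcription factor of neural crest and mesenchyme, fell from 10786 and 10942 to 4618 and 4126 (-1.32 ± 0.075, limma adjusted p = 0.000195), and CDH2, N-cadherin, rose from 24.1 and 12.1 to 263 and 326 (4.02 ± 0.51). Of 8 epithelial junction genes 2 rose and 1 fell, and of 14 genes known for metastatic risk in uveal melanoma 3 rose and 1 fell (4 and 2 without trametinib replicate 1, 4 and 2 without replicate 2, 1 and 0 with no filter).

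Of 28 genes of the TGF-beta and BMP pathway 8 rose and 1 fell (13 and 4 without trametinib replicate 1, 13 and 2 without replicate 2, 1 and 1 with no filter, 13 and 1 with all 8 libraries). ID1 and ID4, inhibitors of basic helix-loop-helix factors that BMP signals induce, went from 27.1 and 24.1 to 196 and 151 (2.70 ± 0.46) and from 304 and 151 to 969 and 1139 (2.29 ± 0.32). TGFBR2, the type II receptor, fell from 1024 and 1121 to 558 and 609 (-0.88 ± 0.13). Of 24 Wnt genes 4 rose and 0 fell (7 and 3 without trametinib replicate 1, 7 and 0 without replicate 2, 1 and 0 with no filter, 7 and 2 with all 8 libraries), led by the secreted inhibitor SFRP1, from 2497 and 3118 to 8996 and 8805 (1.67 ± 0.11, limma adjusted p = 0.000323). Of 15 Notch genes 2 rose and 1 fell (0 and 0 with no filter, 3 and 2 with all 8 libraries). The target HES1 was at 2.01 and 1.00 with trametinib and 50.3 and 62.4 with both drugs. Its ratio on reads was 36.9 (exact interval 12.2 to 183).

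Panobinostat without trametinib was set beside these changes using the other 4 libraries, so the 2 comparisons share no library. Both set libraries with panobinostat, for which no genome build is named, against libraries that have it named. A difference in handling would enter both comparisons and cannot be told apart from a shared response. Against vehicle, panobinostat alone raised 3567 genes (26.8% called) and lowered 3768 (28.3% called). Of the 1148 genes that rose on trametinib, 774 (67.4%, which is 21.7% of the 3567) also rose without it and 144 (12.5%) fell. Of the 1108 that fell, 554 (50%, which is 14.7% of the 3768) also fell without it and 189 (17.1%) rose. Across the 13320 genes the 2 changes had r = 0.40 and rho = 0.33, as a description, since genes are not independent replicates.

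The difference between the 2 responses was tested in 1 fit over all 8 libraries. The change on trametinib was higher than that without it for 1361 genes (10.2% called) and lower for 1204 (9.04% called). These counts were 3690 and 2525 without trametinib replicate 1, 2558 and 2130 without trametinib replicate 2, and between 617 and 782 higher and 690 and 780 lower with any 1 of the other 6 libraries left out.

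The difference was on the higher side for 35 of the 38 mitosis genes, 29 of the 38 DNA replication genes, 15 of the 16 replication-dependent histone genes and 10 of the 12 linker and polyadenylated ones. Panobinostat alone lowered 37, 38, 16 and 9 of the genes of these 4 lists, where on trametinib 18, 0, 4 and 7 rose. For MKI67, trametinib against vehicle spans 54.2 and 56.3 against 2106 and 1906, and panobinostat brought the vehicle level down to 647 and 646 and the trametinib level up to 335 and 327. CENPF had the interaction 4.59 ± 0.23 and MKI67 4.19 ± 0.18 (limma interaction adjusted p = 6.61e-06 and 3.46e-06).

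On the lower side stood 19 of the 21 pigmentation genes. Without trametinib 8 of these 21 rose and 8 fell with panobinostat, at a median of -0.073. MITF rose by 0.34 ± 0.051 there and fell by 0.99 on trametinib, an interaction of -1.34 ± 0.076 (limma adjusted p = 1.05e-05). EDNRB changed by 0.38 ± 0.083 without trametinib and by -2.35 ± 0.095 with it, an interaction of -2.73 ± 0.14. SEMA6A, a guidance molecule of the semaphorin family, TUBA1A, a tubulin of postmitotic neurons, and ABI1, an adaptor of the WAVE actin complex, were raised by panobinostat alone (0.36, 1.57 and 0.19) and lowered on trametinib (-1.09, -1.16 and -1.63). Reads may be shared between TUBA1A and its near-identical relatives.

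**Figure D4:**
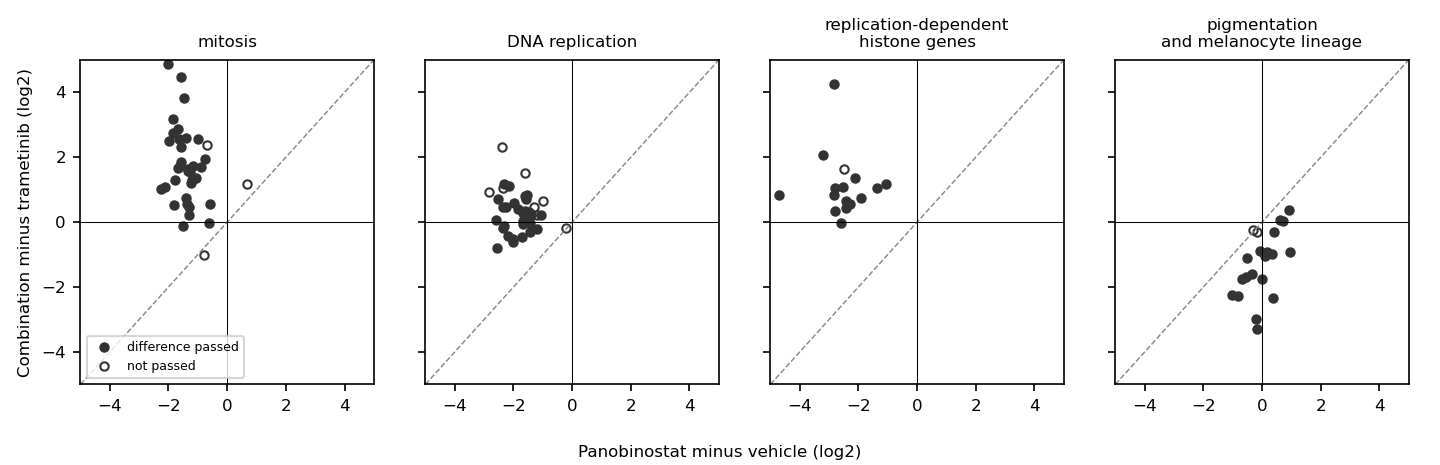
Change with panobinostat without trametinib (x axis, panobinostat minus vehicle) against the change on trametinib (y axis, combination minus trametinib), both on the log2(value + 1) scale, for the members of 4 lists; each point is a gene, filled where the difference of the 2 changes passed, and the dashed line marks equal changes. Mitosis and histone genes lie at the upper left, DNA replication genes to the left near 0 on the y axis, and pigmentation genes below the dashed line.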

How the data were processed

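RNA of 92.1 cells was sequenced in 8 libraries, and the NuGEN Ovation FFPE kit was used per the labels' protocols. The authors deposited 1 table of normalised values, a signal equal to the read count divided by a library's size factor: all values were whole multiples of the smallest in their column (tolerance 1e-06). TopHat2 2.0.13, Cufflinks 2.2.1 and DESeq2 are named per the submitters' processing notes, with build hs37d5 on the 4 libraries without panobinostat; the annotation and the use of strand are not given in the sources used here, so overlapping genes cannot be told apart. Of 18406 genes (458 at 0 throughout), 13320 averaging 10 or more over the 8 libraries were tested with limma 3.58.1 (R 4.3.3, trend, log2 of value plus 1, Benjamini-Hochberg). Only the 4 trametinib and combination libraries entered (2 residual and 4.88 prior degrees of freedom); the response without trametinib used the other 4, and the interaction all 8. Fold changes of low genes are understated on this scale.

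Genes were named by rule: the 15 widest gaps per direction whose higher group averaged 50 or more, 5 interaction genes per direction, up to 4 genes of each of 50 lists (1086 entries, 873 tested) by adjusted p, and a fixed set of drug, lineage and cell cycle genes. The comparison, the lists and the rules were chosen with earlier results of these data known. Alternatives covered scaling (TMM factors from edgeR 4.0.16), the pseudocount, the filter, the libraries fitted, a replicate block and single libraries left out. Intervals cover counting error at 95%. A few genes that the rules name are not reported here. The fit was tested on simulated data that gave all groups the same spread, so the wider spread of the trametinib libraries was not covered.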

Additional observations from a re-analysis of the deposited data

Results flagged for a closer look

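The response to panobinostat differed with and without trametinib, by limma's interaction test over all 8 libraries. It did so for 1361 of 13320 tested genes (10.2%) on the higher side and 1204 (9.04%) on the lower side. Both counts depended on single libraries, as given below. Of the lists, the difference passed on the higher side for 35 of 38 mitosis genes and 29 of 38 DNA replication genes. It also passed there for 15 of 16 replication-dependent and 10 of 12 linker and polyadenylated histone genes. On the lower side it passed for 19 of 21 pigmentation genes.

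Of the single genes with the smallest adjusted p, those with a higher change on trametinib were HIST1H1C (interaction 3.77 on the log2 scale), MKI67 (4.19), ASPH (1.60), CENPF (4.59) and HIST1H2BF (3.65). ASPH, an aspartyl hydroxylase, was at 4035 and 3936 in the vehicle libraries and 2216 and 2183 with trametinib, and at 4632 and 4592 on panobinostat alone and 7737 and 7748 with both drugs. The genes with a lower change on trametinib were HIPK2 (-2.05), MET (-2.15), TUBA1A (-2.73), SEMA6A (-1.45) and ABI1 (-1.81). HIPK2, a nuclear kinase, was at 1078 and 1131 in the vehicle libraries and 5312 and 5057 with trametinib, and at 2786 and 2798 on panobinostat alone and 3147 and 3179 with both drugs.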

How the results depend on the processing

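The count of genes that changed with both drugs against trametinib (1148 higher, 1108 lower) was within 1.5 times of itself under TMM scaling (1090 and 1210), pseudocounts of 0.5 and 10, a mean of at least 50, a mean of at least 200 (chosen after seeing the data) and the replicate block (1598 and 1424). It was 596 and 383 with no filter on low values, which moved the share of higher calls from 50.9% to 60.9%; this share was 59.7% without trametinib replicate 1. All 8 libraries in 1 fit gave 2343 and 2020. With 1 library left out the counts ran from 0 to 3587 higher and from 0 to 2418 lower, and in the fit of all 8, a setting chosen after seeing the data, they were 4238 and 3145 without trametinib replicate 1 and 3057 and 2580 without replicate 2, and 1243 and 1267 without combination replicate 1 and 1250 and 1240 without replicate 2. In the fit of 4, no gene passed with either combination library left out, where 1 residual degree of freedom remained, as with any library left out.

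For panobinostat against vehicle, no filter gave 2341 higher, a mean of at least 200 gave 2211 higher, and all 8 libraries in 1 fit gave 1994 higher and 2075 lower. In that fit, leaving out vehicle replicate 1, vehicle replicate 2, panobinostat replicate 1 or panobinostat replicate 2 gave 1076, 1029, 1064 and 1050 higher, and 918, 942, 1084 and 1106 lower. The interaction counts ran from 617 to 3690 higher and from 690 to 2525 lower with 1 library left out.

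Among 178 single results (genes and interactions), calls were lost 364 times, 149 times without each combination library and 54 with no filter, and gained 46 times, over all settings. In 9 genes, none of which passed with the 4 libraries as deposited, the difference changed sign in some settings. GNA11 was -0.011 under TMM scaling; SPRY4 was -0.012 under TMM scaling and -0.042 with a pseudocount of 10. With 1 library left out, in the fit of 4 or of 8 libraries, BAP1 ran from -0.043 to 0.28, CDKN1B from -0.17 to 0.12, GNA11 from -0.26 to 0.29, GPNMB from -0.024 to 0.10, HDAC2 from -0.34 to 0.058, HDAC3 from -0.037 to 0.40, MAP2K2 from -0.094 to 0.21, MCL1 from -0.032 to 0.28 and SPRY4 from -0.79 to 0.80. In the fit of all 8, CDKN1B was 0.094 and SPRY4 -0.29 without combination replicate 2, and MAP2K2 was -0.070 without trametinib replicate 1. SPRY4 passed in opposite directions in the fit of all 8, lower without trametinib replicate 1 (limma adjusted p = 0.00305) and higher without replicate 2 (-0.79 and 0.80; limma adjusted p = 0.00485 for the latter). The causes were not tested.

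No pairing by replicate number was seen in deviations from the group means. Those of same-numbered trametinib and combination libraries had a correlation of -0.013 across genes, and of vehicle and panobinostat -0.0094. With 2 libraries per group this cannot exclude a pairing. The replicate block moved the main counts to 1598 and 1424 and the interaction counts to 1296 and 1122. Count tests (edgeR and DESeq2) were not run, although all values were whole multiples of the smallest in their column: in 3 of the 8 columns, both of trametinib and 1 of panobinostat, 1 read is worth 1.00 or 1.01, and the check applied to recovered reads takes no value that near to 1. Genes at 0 with trametinib have only a fold set against the floor of 3 reads per library. The trametinib libraries held more reads (10342369 and 10528784) than the combination libraries (9017593 and 6897784). More tested genes were nonetheless at 0 in them (163 and 858 against 24 and 36), and the cause was not tested.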

Other observations

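Several abundant genes outside the lists also moved, and are given here as values, chosen after they had been seen. NEAT1, the RNA scaffold of nuclear paraspeckles, was at 8828 and 7826 with trametinib and 24989.8 and 26369.9 with both drugs (1.63 ± 0.075 on the log2 scale ± SE), alongside MALAT1. HIP1R, an adaptor of clathrin-coated pits, went from 499 and 623 to 3471 and 3887 (2.72 ± 0.13). The protocadherin PCDH20 went from 591 and 558 to 3381 and 3277 (2.53 ± 0.10), and TEX15, known for meiotic recombination, from 104 and 94.4 to 594 and 578 (2.55 ± 0.22). The receptor phosphatase PTPRZ1 went from 45.1 and 6.03 to 356 and 399 (4.39 ± 0.84, 5.75 without trametinib replicate 1 and 3.03 without replicate 2).

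Among the falls, the stress-induced chromatin protein NUPR1 went from 1351 and 1256 to 304 and 278 (-2.16 ± 0.14) and LGI3, a secreted leucine-rich repeat protein, from 1307 and 1463 to 318 and 312 (-2.13 ± 0.13). ADAM12, a membrane metalloprotease, went from 1339 and 1388 to 351 and 249 (-2.20 ± 0.19). SGCD, a subunit of the sarcoglycan complex, went from 2245 and 2151 to 514 and 639 (-1.94 ± 0.13) and TRIM63, a ubiquitin ligase of muscle, from 1185 and 1153 to 357 and 348 (-1.73 ± 0.13). All 5 were higher with trametinib than in any library of the other 3 groups. As they were chosen after their values had been seen, that pattern lends no support.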
